A study of Mus musculus with 20 samples.

Results

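The genes of hair cell identity, of the hair bundle and of the hair cell synapse were followed through the utricles of sham-operated and ovariectomized mice. The set holds 38 genes chosen by name, out of 25655 genes listed in the deposited tables and 15803 with a count in at least 1 library. All mice were female C57BL/6J operated on at 8 weeks of age, and each of the 4 groups gave 5 libraries. The sham + v group had a sham operation and a vehicle pellet, and the other 3 groups were ovariectomized (OVX). The OVX + v group received a vehicle pellet. The OVX + E2 group received a pellet made to release 50 µg of estradiol over 60 days. The OVX + RAL group received a pellet made to release 2.4 mg of raloxifene over 60 days. The paper states that the mice were killed 4 weeks after the operation. Raloxifene is a selective modulator of the estrogen receptor. Libraries were sequenced from the 3′ ends of polyadenylated RNA, so that a transcript gives about the same number of reads whatever its length, and levels are given as CPM, the counts scaled so that each library has the same total, without division by length. The labels do not say how many mice a library holds, and the p-values then measure only the spread between libraries.

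The utricle is a vestibular organ that senses linear acceleration and gravity. Its hair cells carry a bundle of actin-filled stereocilia, whose deflection opens ion channels, and they pass the signal on to afferent neurons at ribbon synapses. Transcription factors such as *Atoh1*, *Pou4f3* and *Gfi1* set up and maintain these cells, unconventional myosins and actin-bundling proteins build the bundle, and otoferlin serves the release of transmitter. In whole utricles, fewer hair cells and less RNA per hair cell cannot be told apart.

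The total count of a library was between 1123053 and 2081747, and 3 counts, the smallest number taken as detected, made 1.44 to 2.67 CPM. No molecular identifiers were used, and this floor covers counting error only. A library held 7427 to 10694 genes with a count. Replicates 13 and 14 of the OVX + E2 group held the fewest, 7547 and 7427.

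Hair cell genes were detected in every library, but not the same ones. Of the 38 genes, 33, 30, 30, 27 and 30 were detected in the sham + v libraries, 31, 35, 30, 29 and 27 with OVX + v, 29, 21, 22, 19 and 32 with OVX + E2, and 27, 25, 33, 30 and 31 with OVX + RAL. The 3 lowest numbers were in the OVX + E2 group, whose range overlapped those of the other groups. The same 3 libraries (replicates 12, 13 and 14) also had the fewest genes with a count, 7427 to 8244. Over whole groups this number was 7427 to 9680 with OVX + E2 and 8651 to 10625 with sham + v, and these ranges overlapped. It was 10004 to 10694 with OVX + v and 10103 to 10290 with OVX + RAL. Both of these ranges lay wholly above that of OVX + E2. The 7 Schwann cell markers summed to 4089, 4257 and 4086 CPM in those 3 libraries, to 2824 and 2341 CPM in the others of the group, and to 1742 to 2938 CPM with OVX + v. They summed to 3855 and 4381 CPM in replicates 3 and 5 of the sham + v group, where 30 hair cell genes each were detected. Over the 20 libraries the number of hair cell genes detected followed the number of genes with a count (Pearson's r 0.79, Spearman's rho 0.70), with r 0.59 without the 2 libraries farthest on the x axis and 0.78 after removal of the group means. With the total count r was 0.54 and rho 0.35, but r was 0.22 without the 2 farthest libraries and 0.30 after removal of the group means. These are descriptions, since both measures come from the same libraries and share their depth. The part of library complexity and of Schwann cell RNA in the low detection of these OVX + E2 libraries was not tested.

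**Figure D1:**
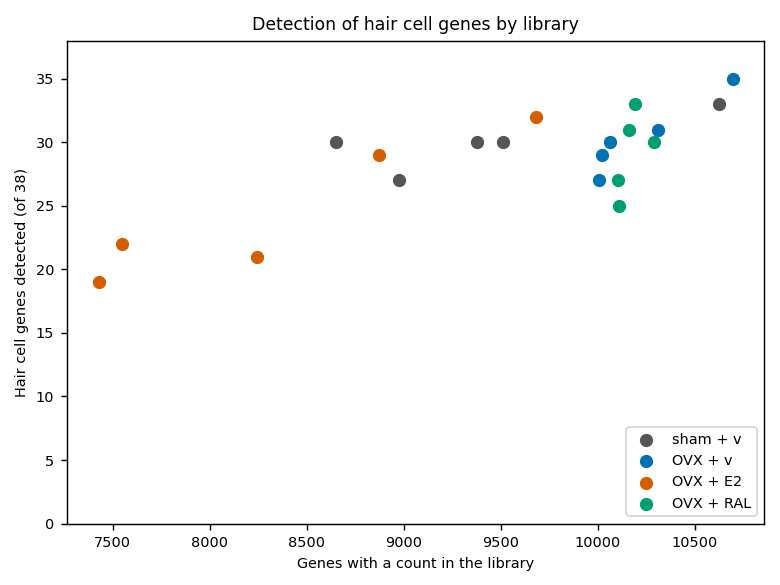
The number of hair cell genes with 3 counts or more (y axis, of 38) is plotted against the number of genes with a count (x axis) for each of the 20 libraries, coloured by group. The 3 libraries with the fewest hair cell genes (19, 21 and 22) were OVX + E2 libraries and had 7427 to 8244 genes with a count.

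The summed level of the 38 genes did not follow this order. It was 2946, 3875, 3052, 2504 and 3642 CPM in the sham + v libraries, 3472, 3661, 2501, 2413 and 2381 with OVX + v, 4009, 2907, 3014, 2437 and 3215 with OVX + E2, and 2344, 2206, 3673, 2212 and 2882 with OVX + RAL. The means were 3204 ± 553, 2885 ± 627, 3116 ± 575 and 2663 ± 629 CPM (SD, n = 5 each), and the 4 ranges overlapped. The genes took 0.221% to 0.401% of the counts of a library. The sum rested on few genes, since the 11 genes with the highest levels held 71.6% of it.

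Of the 38 genes, 11 were detected in all 20 libraries (28.9%, against 16.8% of all genes with a count), and 0 were detected in no library. Without replicates 13 and 14 of the OVX + E2 group, 16 were detected in every remaining library. The 11 were *Pou4f3*, *Gfi1* and *Lhx3*, the motor *Myo6*, the bundle and membrane genes *Triobp*, *Xirp2* and *Ptprq*, the synaptic genes *Otof* and *Cabp2*, the channel *Kcna10*, and *Acbd7*. Detection went with the level. Of the 11 hair cell genes at 100 CPM or more, 10 were in all 20 libraries (94.2% of all genes at that level were), of the 11 at 30 to 100 CPM 1 was (26.0% of all genes), and of the 16 below 30 CPM 0 were.

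Of the 760 values of 38 genes in 20 libraries, 170 (22.4%) were 0, 19 were 1 or 2 counts, 27 were 3 to 9 counts and 544 were 10 counts or more. Over all genes with a count 39.6% of the values were 0 and 52.4% were 10 counts or more, so that values between were few in both. The median of the values above 0 was 101.5 counts for the hair cell genes and 63 for all genes. For the 33 genes at 10 CPM or more, 93 values were 0, where counting error alone (a Poisson model with each gene at its mean CPM) gives 1.96e-05. This model covers the counting of reads only, and neither the sampling of molecules before amplification nor differences between utricles. Each library was built from a small amount of RNA, whose part in these zeros was not tested.

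**Figure D2:**
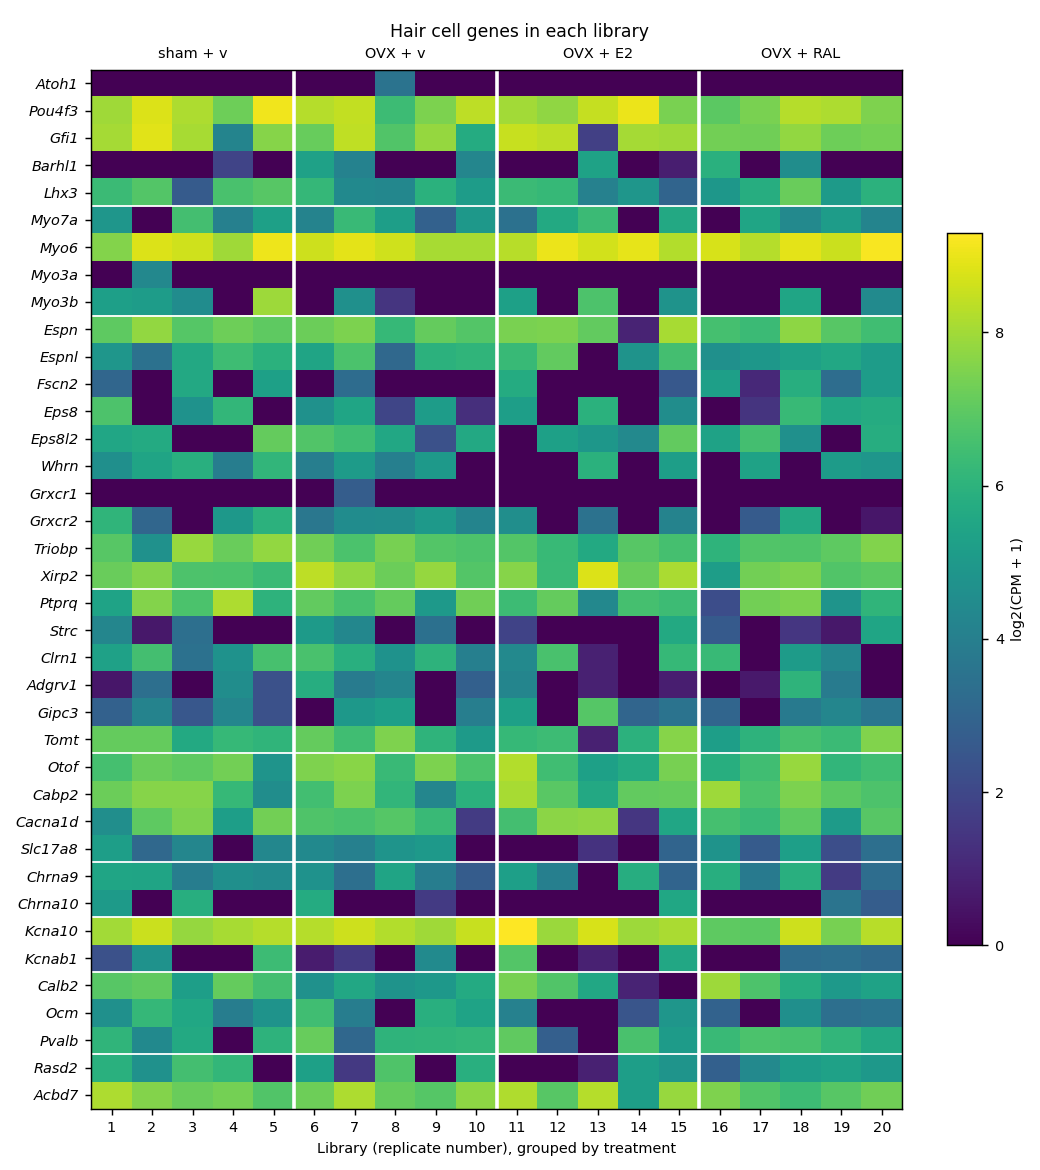
Each row is 1 of the 38 genes, ordered by role, each column 1 of the 20 libraries, and the colour gives the level as log2(CPM + 1), with 0 in the darkest colour. *Myo6*, *Kcna10* and *Pou4f3* were high in every column, while 24 of the 38 genes were at 0 in at least 1 library.

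Among the transcription factors, *Pou4f3*, needed for the survival of hair cells, was at 276 CPM over all libraries, *Gfi1*, a transcriptional repressor, at 207 CPM, and *Lhx3*, a LIM homeodomain factor, at 57.2 CPM. *Pou4f3* (chromosome 18, 42527604 to 42530314, + strand of GRCm39) was at 254, 449, 282, 151 and 552 CPM in the sham + v libraries, 308, 353, 81.6, 177 and 330.3 with OVX + v, 255, 215, 353, 517 and 173 with OVX + E2 and 123, 169.7, 305, 283 and 181 with OVX + RAL. *Gfi1* (chromosome 5, 107864523 to 107873902, - strand) was at 263, 468, 268, 17.3 and 197 CPM in the sham + v libraries, 141, 340.0, 108, 229 and 52.3 with OVX + v, 364, 329, 2.40, 264 and 250.4 with OVX + E2 and 160.0, 157, 221, 152 and 163 with OVX + RAL. In both genes the groups overlapped, and *Gfi1* fell close to the detection floor in 1 OVX + E2 library. *Lhx3* (chromosome 2, 26090224 to 26098301, - strand) was at 79.4, 111, 5.33, 99.0 and 117 CPM in the sham + v libraries, 72.3, 20.1, 18.7, 60.9 and 34.1 with OVX + v, 80.9, 73.3, 16.03, 28.5 and 7.01 with OVX + E2 and 29.3, 53.9, 142, 32.5 and 62.0 with OVX + RAL. In the sham + v group 4 of the 5 *Lhx3* values were above every OVX + v value and the other was below them all. *Barhl1*, a homeobox factor, was detected in 7 libraries at 9.90 CPM, and *Ddx31* on the opposite strand overlaps its 3′ end. *Atoh1*, the factor that starts hair cell differentiation, had 19 counts in replicate 8 of the OVX + v group and 0 in the other 19 libraries.

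Of the bundle motors, *Myo6*, a myosin moving towards the minus end of actin, had the highest level of the set, 393 CPM, the rank of 313 among all genes listed. *Myo6* (chromosome 9, 80072313 to 80219011, + strand) was at 191, 446, 393, 251 and 537 CPM in the sham + v libraries, 385, 489, 396, 268 and 269.7 with OVX + v, 318, 527, 401, 493 and 302 with OVX + E2 and 429, 305, 488, 379.8 and 589 with OVX + RAL. The groups overlapped. *Myo7a*, the myosin of the upper tip link, was detected in 17 libraries at 32.4 CPM. *Myo3b*, a myosin of the stereocilia tips, was detected in 11 libraries, and its paralog *Myo3a* had 37 counts in replicate 2 of the sham + v group and 0 elsewhere.

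Of the 10 genes for proteins of the actin bundle, its tip and the cuticular plate, 2 were in all 20 libraries. *Triobp* (chromosome 15, 78831924 to 78890069, + strand), whose product bundles the actin of the rootlets, was at 116, 25.2, 231, 145 and 222 CPM in the sham + v libraries, 153, 102, 167, 111 and 102 with OVX + v, 112, 75.5, 49.7, 117 and 92.6 with OVX + E2 and 65.8, 109, 105, 126 and 185 with OVX + RAL. *Xirp2* (chromosome 2, 67004178 to 67356959, + strand), an actin-binding repeat protein, was at 145, 192, 104, 101 and 79.6 CPM in the sham + v libraries, 329, 219, 149, 229 and 111 with OVX + v, 196, 77.0, 449, 143 and 276 with OVX + E2 and 35.5, 158, 183, 108 and 125 with OVX + RAL. The highest *Xirp2* value, in the OVX + E2 group, was in the library where *Gfi1* was at its lowest. Over all 20 libraries, with the group means removed, the pair had r -0.20 (permutation test, adjusted p = 0.801). Its rho was 0.03 (permutation test, adjusted p = 0.988). The actin bundler *Espn* was detected in 19 libraries at 136 CPM, and its relative *Espnl* in 19 at 50.5 CPM. The others were *Eps8l2* (16 libraries), *Eps8*, *Whrn* and *Grxcr2* (14 each), *Fscn2* (10) and *Grxcr1* (1, with 9 counts). *B230206H07Rik* lies on the strand opposite the 3′ end of *Eps8l2*.

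Of the 6 genes for links or membrane proteins of the bundle, *Ptprq* (chromosome 10, 107352910 to 107555912, - strand), a receptor phosphatase of the shaft connectors, was in all libraries, at 41.4, 192, 102, 285 and 64.3 CPM in the sham + v libraries, 135, 96.0, 136, 31.2 and 155 with OVX + v, 82.9, 138, 19.2, 94.4 and 82.1 with OVX + E2 and 3.60, 159, 177, 27.3 and 66.3 with OVX + RAL. The lowest value, in the OVX + RAL group, was near the floor. *Tomt*, needed for the transduction channel, was detected in 19 libraries at 92.3 CPM, and overlaps *Anapc15* on the opposite strand. *Clrn1* and *Gipc3* were detected in 16 libraries each, and *Strc* and *Adgrv1* in 10 each. *Ckmt1* lies opposite the 3′ end of *Strc*. The strand setting of the counting is not spelled out in the sources used here, so that the values of these genes with an opposite neighbour are uncertain.

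At the synapse, *Otof* encodes otoferlin, the calcium sensor of transmitter release, and *Cabp2* a calcium-binding protein that acts on the calcium channel encoded by *Cacna1d*. *Otof* (chromosome 5, 30524406 to 30619276, - strand) was at 94.0, 143, 128, 159 and 27.2 CPM in the sham + v libraries, 183, 200.1, 77.7, 174 and 101 with OVX + v, 297, 85.3, 38.5, 50.8 and 168 with OVX + E2 and 56.1, 85.6, 231, 68.2 and 87.4 with OVX + RAL. *Cabp2* (chromosome 19, 4131578 to 4137340, + strand) was at 146, 195, 194, 74.4 and 22.6 CPM in the sham + v libraries, 87.8, 176, 69.2, 18.3 and 59.9 with OVX + v, 271, 120.1, 48.1, 134 and 135 with OVX + E2 and 246, 102, 174, 124 and 104 with OVX + RAL. Over the 20 libraries *Otof* ranged from 27.2 to 297 CPM and *Cabp2* from 18.3 to 271 CPM, and both overlapped between the groups. *Cacna1d* was detected in 19 libraries at 96.6 CPM and *Slc17a8*, a vesicular glutamate transporter, in 14 at 13.3 CPM. Of the subunits of the efferent acetylcholine receptor, *Chrna9* was detected in 19 libraries and *Chrna10* in 7, the latter opposite to *Art1*, which had 2081 counts.

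*Kcna10*, a voltage-gated potassium channel subunit, was at 256, 376, 227, 267 and 310.4 CPM in the sham + v libraries, 308, 386, 296, 252 and 369 with OVX + v, 630.1, 236, 425, 247 and 281 with OVX + E2 and 125, 122, 382, 167 and 316 with OVX + RAL. It lies on chromosome 3, 107090372 to 107103037, + strand. In 3 of the 5 OVX + RAL libraries *Kcna10* was below every OVX + v library, and the other 2 were within their range. *Kcnab1*, an auxiliary subunit, was detected in 10 libraries. Of the calcium buffers, *Calb2* and *Pvalb* were detected in 18 libraries each and *Ocm* in 16. *Rasd2* was detected in 15 libraries, and *Acbd7* (chromosome 2, 3337205 to 3342030, + strand), an acyl-CoA-binding domain protein, was at 284, 190.0, 143, 163 and 109 CPM in the sham + v libraries, 151, 284, 138, 115 and 208 with OVX + v, 289, 116, 310.2, 36.5 and 230.1 with OVX + E2 and 183, 108, 82.2, 118 and 153 with OVX + RAL.

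**Figure D3:**
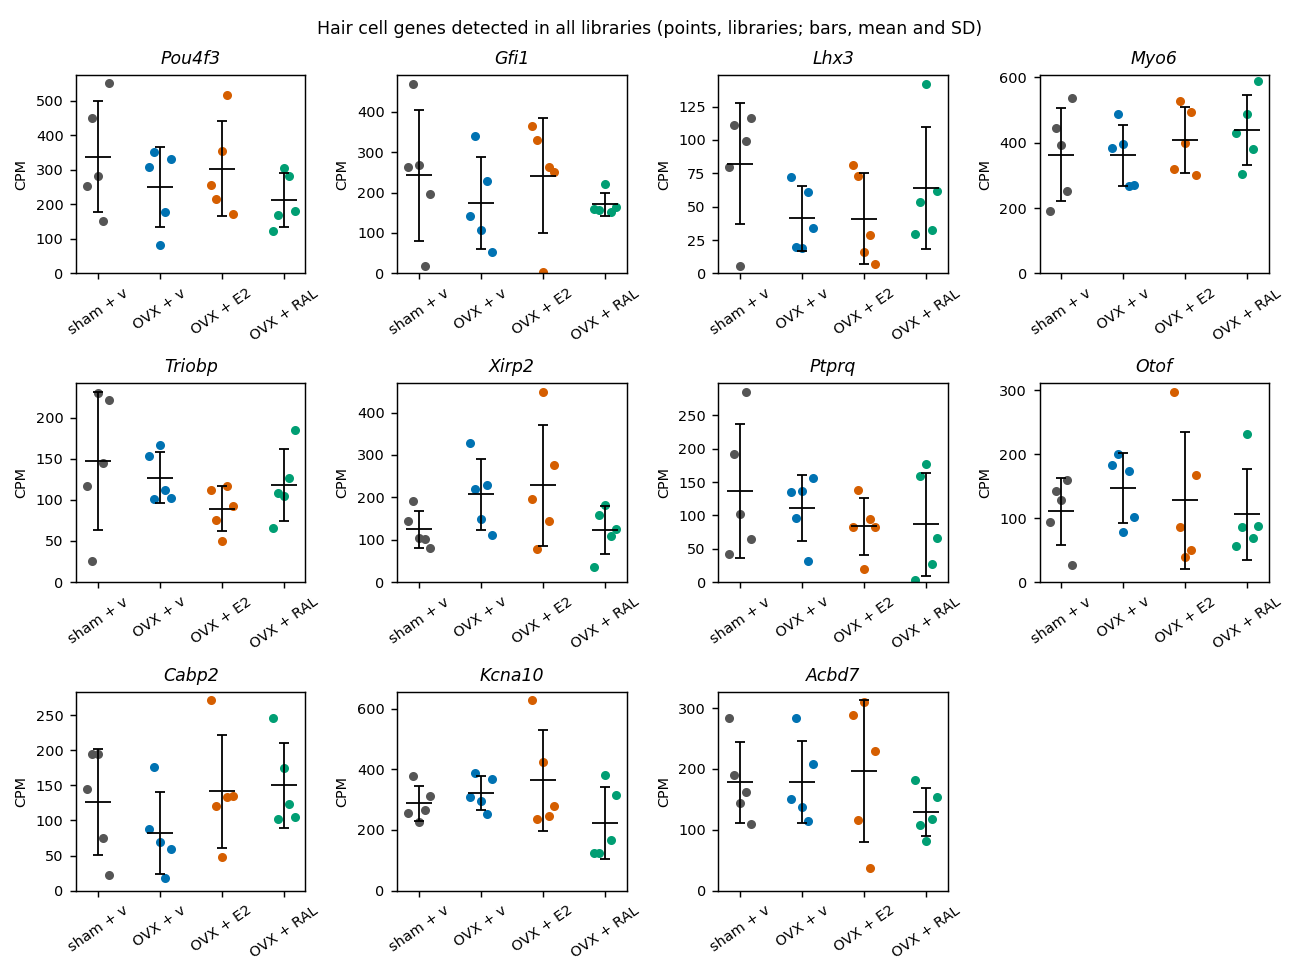
Each panel shows 1 of the 11 genes detected in all 20 libraries, with the level in CPM (y axis, from 0) of every library as a point, and the mean with its SD (n = 5) as a bar, for each group (x axis). The groups overlapped for each of the 11 genes.

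Promoters are shown for *Kcna10* and *Cabp2*, both detected in all libraries and both holding the letters CAGATGG, an E-box of the kind bound by proneural factors such as the product of *Atoh1*. The sequences run from 250 bases before to 50 after the start in RefSeq's table of the GRCm38.p6 build, on the strand of the gene, chr3:107182893-107183192 (+) and chr19:4082238-4082537 (+), and the capitals mark the E-box or its reverse complement. The table has another *Cabp2* promoter, chr19:4083269-4083568 (+), which holds none of the motifs searched and is not shown.
Kcna10: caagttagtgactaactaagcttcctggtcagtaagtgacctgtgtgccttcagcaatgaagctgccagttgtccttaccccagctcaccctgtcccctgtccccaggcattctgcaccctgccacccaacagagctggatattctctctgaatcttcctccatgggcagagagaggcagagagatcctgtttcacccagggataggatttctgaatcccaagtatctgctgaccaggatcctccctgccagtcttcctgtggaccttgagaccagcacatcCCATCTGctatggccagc
Cabp2: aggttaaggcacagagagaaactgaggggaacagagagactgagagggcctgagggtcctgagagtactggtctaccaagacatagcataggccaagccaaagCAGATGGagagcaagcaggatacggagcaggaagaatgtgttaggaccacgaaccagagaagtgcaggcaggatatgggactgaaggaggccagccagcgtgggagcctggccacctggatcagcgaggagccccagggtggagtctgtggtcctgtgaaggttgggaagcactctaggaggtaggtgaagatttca
The table matched 32 of the 38 genes by 46 promoters. CAGATGG or CAGCTGG on either strand was in 7 of the 46 (15.2%) and in 13.1% of all 32851 promoters. TATAAA was in 2 of the 46 (4.35%) and in 8.32% of all. These are matches of letters and no evidence of binding.

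The comparisons with the OVX + v group ask whether the loss of ovarian hormones, or their replacement, changed hair cell genes. In edgeR's quasi-likelihood fits, with p-values adjusted over all genes tested and a threshold of 0.05, 0 of the 37 hair cell genes tested set the sham + v group apart from the OVX + v group, where 0.0145% of all 13825 genes did. Of the 36 tested in the OVX + E2 group 0 differed from the OVX + v group (0.0584% of 13695 genes). The OVX + E2 libraries held 7427 to 9680 genes with a count and the OVX + v libraries 10004 to 10694, without overlap. The part of this in the comparison was not tested. Of the 36 in the OVX + RAL group 0 differed (0.0286% of 14002 genes). A test of any difference among the 4 groups gave 0 of 37, against 0.141% of 14870 genes. At these shares under 1 hair cell gene would be called in each comparison if they behaved like all genes. With DESeq2 0 hair cell genes passed in each comparison too. At an unadjusted p under 0.05 there were 4, 1, 4 and 2 hair cell genes, respectively, against 12.5%, 13.9%, 12.1% and 16.3% of all genes. The smallest adjusted p of a hair cell gene was 0.363, 0.351, 0.402 and 0.134. When data were simulated for the sham + v against OVX + v comparison with the estimated dispersions, 87 of 200 genes changed by 3 on the log2 scale (43.5%) were recovered. The changed genes were drawn without those of low expected count, so that this share does not cover hair cell genes near the floor. With a dispersion fixed at 0.1, which was not estimated from these data, 200 of 200 were recovered.

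The median log2 fold change of the hair cell genes relative to the OVX + v group was 0.20 for sham + v, 0.07 for OVX + E2 and -0.21 for OVX + RAL, against -0.02, -0.06 and -0.03 over all genes tested. With genes that had no count in 1 group set at the bound of the floor, these medians were the same. These medians depended on single libraries. With 1 library left out they were 0.05 (without replicate 3 of the sham + v group) to 0.29 (without replicate 6 of the OVX + v group) for sham + v, and -0.34 (without replicate 18) to -0.05 (without replicate 17 of the OVX + RAL group) for OVX + RAL. For OVX + E2 they were -0.11 to 0.16, below 0 without any one of replicates 8, 10, 11, 13 and 15. In the OVX + E2 group the sign also depended on the scaling: with TMM normalization, which moved the median of all genes by -0.11 to -0.17, the median of the hair cell genes was -0.03. The 3 comparisons share the OVX + v libraries. For the 11 genes in all libraries the log2 fold changes lay between -0.74 and 1.00 for sham + v (SE 0.30 to 0.76), between -0.51 and 0.78 for OVX + E2 (SE 0.33 to 1.22) and between -0.77 and 0.87 for OVX + RAL (SE 0.28 to 0.73).

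*Calb2*, which encodes the calcium buffer calretinin, was at 118, 130.2, 36.2, 136 and 90.9 CPM in the sham + v libraries, 24.9, 46.4, 26.6, 30.2 and 50.9 with OVX + v, 165, 108, 47.3, 0.890 and 0 with OVX + E2 and 242, 102, 53.5, 31.5 and 40.4 with OVX + RAL. In the sham + v group 4 of 5 values, and in the OVX + RAL group 3 of 5, were above every OVX + v value. Its log2 fold change was 1.51 ± 0.71 (SE) in the sham + v group (edgeR, adjusted p = 0.363) and 1.39 ± 0.65 in the OVX + RAL group (edgeR, adjusted p = 0.402), and neither passed the threshold. The latter was 0.67 without replicate 16 of the OVX + RAL group, and up to 1.61 without another library. *Calb2* is also expressed in calyx afferents. Over the 20 libraries its log2 level and the log2 of the summed level of the 7 neuron markers had r 0.42 and rho 0.40. This r was 0.30 without the 2 farthest libraries and 0.42 with the group means removed. The part of neuronal RNA was not tested.

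*Myo3b* was at 37.0, 34.6, 21.9, 0 and 241 CPM in the sham + v libraries, 0, 24.5, 1.70, 0 and 0 with OVX + v, 38.5, 0, 104, 0 and 26.7 with OVX + E2 and 0, 0, 43.5, 0 and 21.1 with OVX + RAL. Its log2 fold change in the sham + v group was 3.66 ± 1.23 (SE; edgeR, adjusted p = 0.363), which did not pass the threshold, and was 2.15 without replicate 5 of that group. Without replicate 7 the OVX + v group had a single library with 3 counts, the floor, and no fold is given. The adjusted p of that fit was 0.0719 (edgeR), which did not pass the threshold either. *Fscn2*, an actin bundler of the fascin family, was at 7.31, 0, 48.0, 0 and 38.5 CPM in the sham + v libraries, 0, 8.78, 0, 0 and 0 with OVX + v, 52.4, 0, 0, 0 and 4.91 with OVX + E2 and 37.0, 1.08, 55.8, 8.92 and 34.1 with OVX + RAL. Its log2 fold change in the OVX + RAL group was 3.92 ± 1.98 (SE; edgeR, adjusted p = 0.409), and 4 of the 5 values were above every OVX + v value. In the sham + v group 2 values, and in the OVX + E2 group 1 value, were also above every OVX + v value. All OVX + v counts of *Fscn2* came from replicate 7, and without it no fold can be given. The OVX + v mean was 1.76 CPM, under the 1.81 CPM that 3 counts in each OVX + v library make on average. The size of this fold is therefore uncertain. *Xirp2* was lower in the OVX + RAL group by a log2 fold change of -0.77 ± 0.39 (SE; edgeR, adjusted p = 0.410), a difference that did not pass the threshold, and 2 of its 5 values were below every OVX + v value. In the sham + v group its log2 fold change was close to this, -0.74 ± 0.42 (SE; edgeR, adjusted p = 0.560). There 3 of the 5 values were below every OVX + v value. In the OVX + E2 group it was 0.14 ± 0.43 (SE).

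*Atoh1* and *Myo3a* also had an unadjusted p under 0.05, each through 1 library. *Myo3a* was at 3.88 ± 8.68 CPM (SD, n = 5) in the sham + v group and at 0 in every OVX + v library, at least 2.15-fold lower. In the OVX + v group *Atoh1* was at 2.15 ± 4.82 CPM (SD, n = 5), and it was at 0 in every sham + v and OVX + RAL library, at least 1.27-fold and 1.36-fold lower, by the mean CPM of 3 counts in each library. Against the OVX + E2 group both means were at or under that floor.

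**Figure D4:**
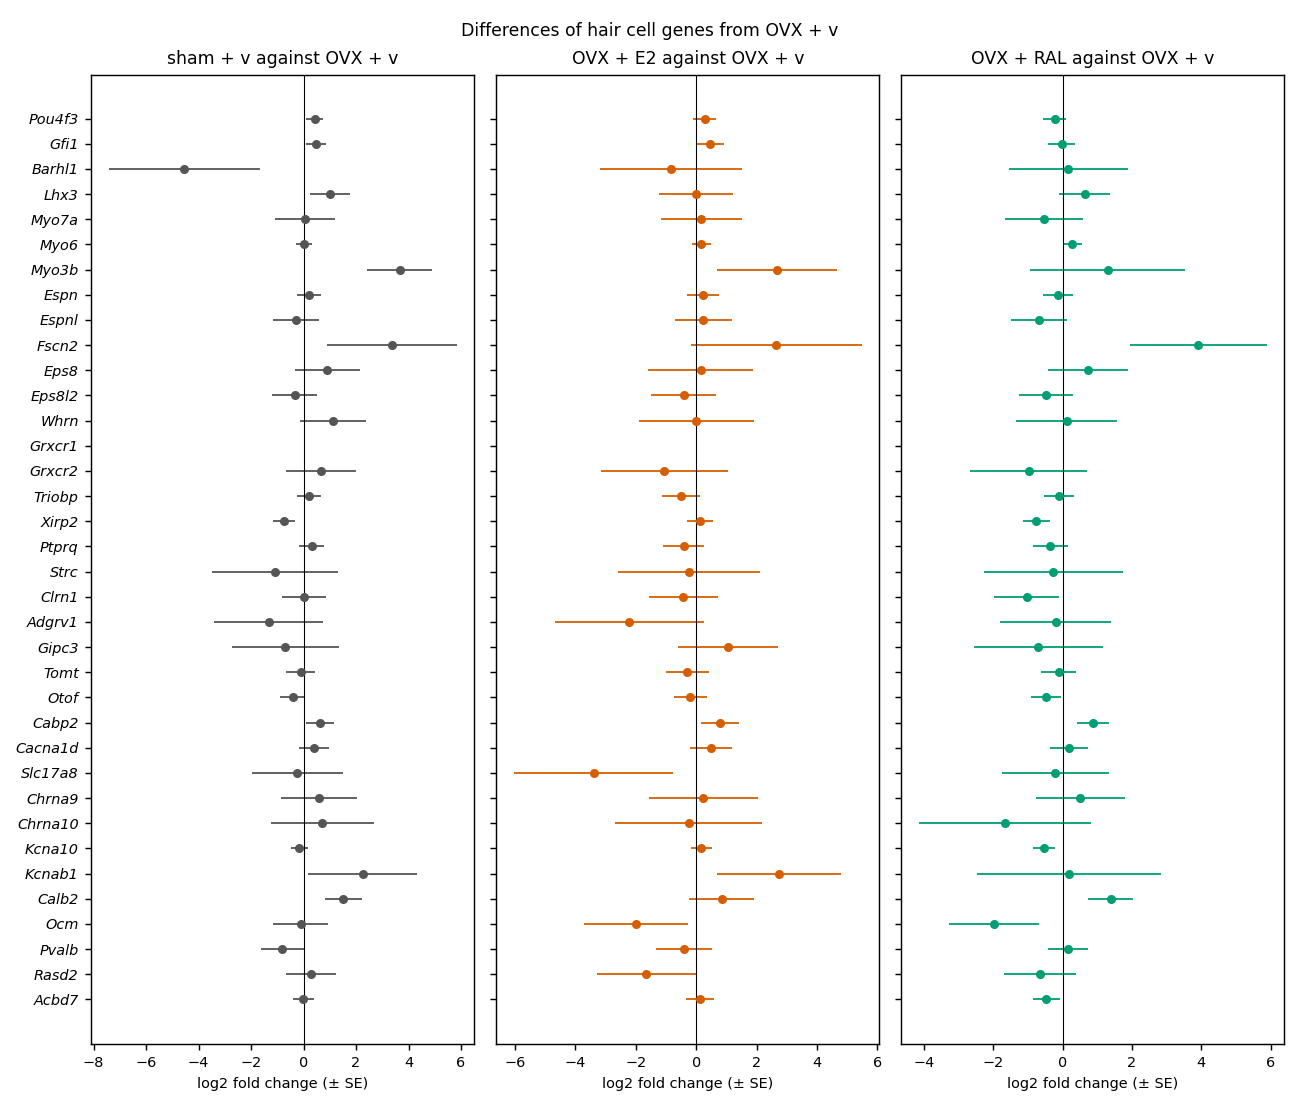
Log2 fold changes (x axis) with their SE (bars) are given for each tested hair cell gene (y axis) for sham + v (left), OVX + E2 (middle) and OVX + RAL (right) against OVX + v, and the x axes of the 3 panels differ. *Atoh1* and *Myo3a*, with no count in a group, are left out, and *Grxcr1* had too few counts to be tested. Of these differences 0 passed an adjusted p of 0.05.

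Hair cell genes did not move together between the libraries to a degree that passed correction. For the 11 genes in all libraries, log2(CPM + 1) was taken with the group means removed, and each of the 55 pairs was tested by 100000 two-sided permutations of libraries within groups. Of the 55 pairs 0 passed an adjusted p of 0.05, by r or by rho. Pearson's r was between -0.33 and 0.55 with a median of 0.11, and 35 pairs were above 0. *Otof* and *Cabp2* had the highest r, 0.55 (permutation p = 0.0223, adjusted p = 0.785), and rho 0.53 (permutation p = 0.0234, adjusted p = 0.582). Without the 2 libraries farthest on *Otof* its r was 0.30 and without the 2 farthest on *Cabp2* 0.53, and it was uneven between the groups, at 0.82 in the sham + v, 0.12 in the OVX + v, 0.84 in the OVX + E2 and -0.00014 in the OVX + RAL libraries (n = 5 each, as a description). *Gfi1* and *Cabp2* had the highest rho, 0.60 (permutation p = 0.00601, adjusted p = 0.331), with r 0.45. This r was 0.32 without the 2 libraries farthest on *Gfi1* and 0.74 without the 2 farthest on *Cabp2*. *Pou4f3* and *Myo6* had rho 0.50 (permutation p = 0.0423, adjusted p = 0.582). At an unadjusted p under 0.05 there was 1 pair by r and 4 by rho.

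**Figure D5:**
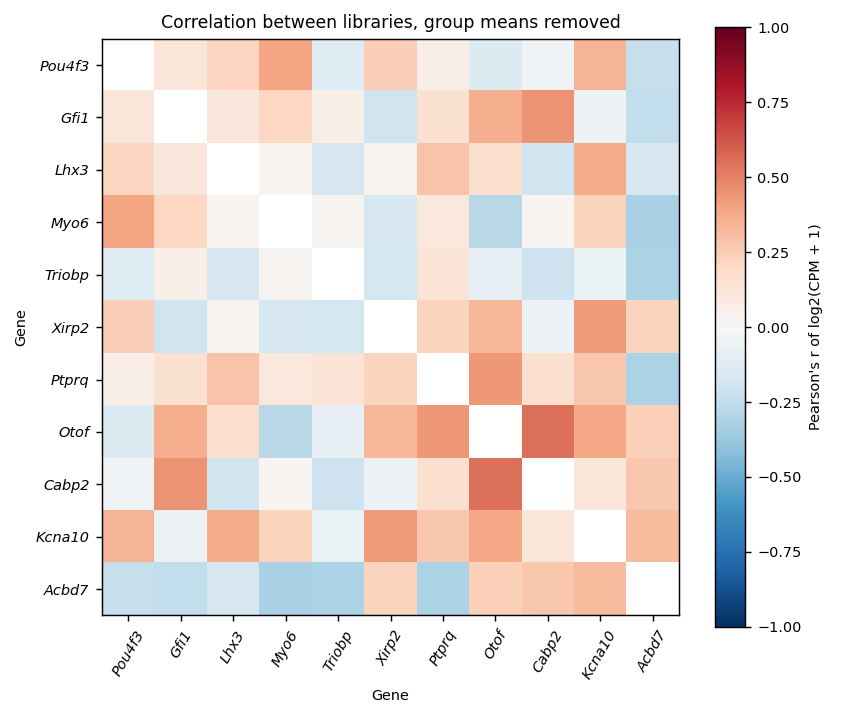
Pearson's r of log2(CPM + 1) between libraries, after removal of the group means, is shown by colour from -1 to 1 for each pair of the 11 genes named on both axes (n = 20 libraries). The darkest cell is that of *Otof* and *Cabp2* (r 0.55), and 35 of 55 pairs were above 0.

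The sum over the hair cell genes followed that over the other hair cell genes, a list of 22 of which 21 were listed and 8 were in all libraries (*Tmc1*, *Tmie*, *Lhfpl5*, *Ush1c*, *Atp2b2*, *Ctbp2*, *Smpx* and *Cd164l2*). All correlations of this paragraph were taken on log2 levels. For these sums r was 0.68 and rho 0.72 (n = 20), with r 0.63 without the 2 farthest libraries and 0.64 with the group means removed. They are given as a description, since both come from the same libraries. Of this list 0 genes passed in each comparison, of 17, 17 and 16 tested. The summed neuron markers had r 0.50 and rho 0.47 with the hair cell genes. This r was 0.37 without the 2 farthest libraries and 0.47 with the group means removed. The supporting cell markers had r 0.32, which was 0.18 without the 2 farthest and 0.36 with the group means removed. Over all libraries the r of those of the otoconial roof and dark cell, Schwann cell, fibroblast and fibrocyte, skeletal muscle, melanocyte, macrophage, erythroid and endothelium lists lay between -0.15 and 0.21, and without the 2 farthest between -0.26 and 0.14. With the group means removed it lay between -0.15 (endothelium) and 0.25 (melanocyte). The 6 skeletal muscle markers summed to 0 to 422 CPM and the 7 Schwann cell markers to 1688 to 4381 CPM over all libraries. *Pvalb*, which muscle also expresses, had r 0.26 with the muscle markers, which was 0.12 without the 2 farthest libraries and 0.13 with the group means removed.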

How the data were processed

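Utricle RNA of 4 groups of 5 libraries was analysed, with groups taken from the labels. As the paper states, the authors trimmed the reads and mapped them to the GRCm39 genome in CLC Genomics Workbench. The paper names the default settings of that program for the mapping, without spelling out how strand and reads matching several genes were handled. The deposited total counts are raw counts of reads per gene. The deposited CPM, TPM and RPKM columns and the authors' comparisons (fold changes and p-values) were not used. One deposited file stacks several tables, of which the first was used, and there were 0 columns of samples outside the series.

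CPM was computed from the total count of each library, and 3 counts were taken as detected. A gene entered a fit when its counts in those libraries came to 10 or more, and was tested by edgeR's quasi-likelihood test (edgeR 4.0.16, limma 3.58.1, R 4.3.3), library sizes being total counts, and p-values were adjusted by Benjamini-Hochberg with a threshold of 0.05. The SE was derived from the log2 fold change and F (their ratio, F under a root). Alternatives were DESeq2 1.42.0, TMM normalization, the default filter of edgeR or none, all 20 libraries in 1 fit, other detection limits, a pseudocount of 0.1 in place of 1, and each library left out. Other steps ran in Python 3.11.15 (matplotlib 3.10.9, pandas 2.3.3, scipy 1.17.1, numpy 2.4.6). The edgeR procedure was tested on simulated data, where 17 false calls accompanied the 87 recovered genes in the sham + v against OVX + v comparison, and 1 call was made when nothing was changed.

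Gene positions are those of the deposited tables. All 38 genes were found in the GENCODE vM39 annotation, 13 with the same start and end, and 0 had a near-identical copy (63 nucleotides at 97% identity) within the last 400 nucleotides of the transcript. The members and the marker lists were chosen with earlier results of these data known. All members were described by role. Values of every library were printed for genes detected in all libraries and for those with a fold change. Fold changes were printed for genes with an unadjusted p under 0.05 in that comparison, and for *Xirp2* in the other comparisons too.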

Additional observations from a re-analysis of the deposited data

Results flagged for a closer look

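In 66 groups of 5 libraries the highest or lowest value was compared with the others by Dixon's test (critical value 0.71), and 9 values lay apart. Chance sets apart about 1 in 20 groups, but the count of 9 cannot be read against that, since 1 library with counts among libraries at 0 always lies apart, as for *Atoh1* and *Fscn2* with OVX + v and *Myo3a* with sham + v. In the OVX + RAL group 3 of them were in replicate 18, which had *Gfi1* at 221 CPM (152 to 163 in the others), *Lhx3* at 142 CPM (29.3 to 62.0) and *Otof* at 231 CPM (56.1 to 87.4). *Myo3b* was at 241 CPM in replicate 5 of the sham + v group (0 to 37.0 in the others) and at 24.5 CPM in replicate 7 of the OVX + v group (0 to 1.70). *Fscn2* was at 52.4 CPM in replicate 11 of the OVX + E2 group (0 to 4.91) and at 8.78 CPM in replicate 7 of the OVX + v group (0 in the others). *Atoh1* at 10.8 CPM in replicate 8 of the OVX + v group and *Myo3a* at 19.4 CPM in replicate 2 of the sham + v group stood against 0 in the others of their group.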

How the results depend on the processing

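In 70 other fits (DESeq2, TMM, the default filter of edgeR or none, 1 fit of all libraries, and libraries left out) 0 hair cell genes passed the threshold, and the named fold changes kept their direction. The counts over all genes did change. For sham + v against OVX + v they were 1 with TMM, 12 with DESeq2, 0 with the default filter of edgeR and 1 to 10 without 1 library. For the OVX + E2 group they were 38 with DESeq2, 1 with the default filter and 6 to 17 without 1 library, for the OVX + RAL group 0 with the default filter and 3 to 11 without 1 library, and for any difference 2 with DESeq2, 1 with the default filter and 17 to 28 without 1 library. The cause was not tested. *Fscn2* rests on replicate 7 in the OVX + v group, which has no count without it. Detection was in all libraries for 14 genes at 1 count and 8 at 10 counts, and for 11 to 14 without 1 library. In no library 1 gene was detected at 10 counts, and 0 to 1 without 1 library, where replicate 2 (sham + v), 7 or 8 (OVX + v) was left out. Leaving out libraries for detection and co-variation, and leaving out replicates 13 and 14 of the OVX + E2 group together, were chosen after seeing the data. No pair co-varied past the threshold in any of 23 alternatives (0 in each). No paired analysis was made, since the labels give no pairing of libraries between groups. The paper states that the mice were assigned to the groups at random.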
